A study of Mus musculus with 16 samples.

Results

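Macrophage marker genes were followed through normal mouse skin and mouse skin carcinomas. The 10 genes are Csf1r, Cd68, Cd163, Mrc1, C1qa, C1qb, Itgam, Arg1, Msr1 and Clec4d. They were found by symbol, as the probesets to which the array's annotation gives one of these symbols and no other, and every one of the 10 was found. They hold 17 of the 45037 probesets tested and are 10 of 18193 genes. Where a gene has several probesets, the one with the highest average in the 16 samples stands for it. The values are log2 signals, so that a difference of 1 is a 2-fold change of signal.

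RNA of whole tissue was measured in 4 samples of control skin, 7 p53 tumors and 5 pRbp53 tumors of the FVB background, 1 array per sample. Control skin came from wild type mice. The tumors are labelled squamous cell carcinomas and arose in k14Cre;p53loxP/loxP and in k14Cre;p53loxP/loxP;pRbloxP/loxP animals, in which the keratin 14 promoter drives Cre in stratified epithelia, so that the floxed alleles are removed in epithelial cells. By histology, the p53 tumors were 3 poorly differentiated (tumors 2, 4 and 5), 1 undifferentiated (tumor 3), 1 spindle (tumor 6) and 2 mixed carcinomas (tumors 1 and 7), and the pRbp53 tumors were 4 spindle (tumors 1, 2, 3 and 5) and 1 mixed (tumor 4). Undifferentiated and spindle tumors were joined, as the study does, which gave 6 tumors against 3 poorly differentiated ones. All 3 poorly differentiated tumors were p53 tumors, so grade and genotype partly coincide. The age of the animals is not given in the sources used here, and no source states whether each sample is from an animal of its own, so p-values measure the spread between these samples.

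Macrophages depend on signals through the receptor encoded by Csf1r, which binds the growth factors CSF1 and IL-34. They take up debris and microbes through scavenger and lectin receptors, make most of the complement starter C1q, and in carcinomas they are often among the most numerous leukocytes. Markers such as Mrc1, Cd163 and Arg1 are widely used for macrophages under the influence of interleukin-4 or of tissue repair, although Arg1 and Cd68 are also expressed outside the lineage. In whole tissue, fewer macrophages and less RNA per macrophage cannot be told apart.

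Some arrays stood apart. The 3' against 5' signal of actin, which rises as RNA degrades, differed by 1.33 (log2) in control skin 3 and by 1.67 in p53 tumor 7, and all other arrays lay between 0.21 and 0.68. Among those, pRbp53 tumor 4 read 0.68. The poorly differentiated tumors read 0.40 to 0.51 and the undifferentiated or spindle tumors 0.21 to 0.50, so this ratio leaned with grade. Its part in the grade differences was not tested beyond a fit with it as a covariate, given near the end. Control skin 3 was the lowest control sample for 8 of the 10 markers. Control skin 2 and control skin 4 were closer to each other (median difference 0.121 on the log2 scale) than the other pairs of control skin (0.225 to 0.268). The mean signal of the skeletal muscle, keratinocyte and adipocyte genes was higher in every control sample than in any tumor. Acta1 (skeletal actin) read 14.10 to 14.31 in control skin and 5.13 to 11.15 in tumors. The labels were compared with defining markers too. Krt5 and Krt14, the keratins of basal keratinocytes, were at 4.76 and 4.41 in p53 tumor 5, a poorly differentiated tumor, as low as in the undifferentiated or spindle tumors (Krt5 5.05 to 5.72), while the other poorly differentiated tumors read 10.77 and 11.73 for Krt5. All 3 poorly differentiated tumors had high Kit (10.42 to 11.60, against at most 8.08 in any other sample) and Ltf, a secretory protein gene (10.47 to 12.36, against at most 6.44). The marker differences from control skin are given below with and without control skin 3, and those of the mixed and p53 tumors also without p53 tumor 7. The values used here hold no detection calls and the median signal of an array was 5.63 to 5.76, so a signal below that may be background and a difference from it is one of signals only.

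Promoters are shown for 4 of the markers to let their letters be read beside the measurements: Itgam and Cd68, from the group that moved together with grade, Clec4d, which was higher in every tumor than in any control sample, and Cd163, which was lower in tumors. RefSeq promoter sequences were given for 6 of the 10 genes (those 4, Mrc1 and C1qb). Each run below is on GRCm38.p6, 5' to 3', from 250 bases before the annotated start to 30 bases after it. Capitals mark the letters GAGGAA, the core bound by the myeloid factor PU.1 and other ETS factors, and TGAGTCA, the AP-1 site, each on either strand (TTCCTC and TGACTCA in reverse).
Itgam, chr7:128062390-128062669, plus strand: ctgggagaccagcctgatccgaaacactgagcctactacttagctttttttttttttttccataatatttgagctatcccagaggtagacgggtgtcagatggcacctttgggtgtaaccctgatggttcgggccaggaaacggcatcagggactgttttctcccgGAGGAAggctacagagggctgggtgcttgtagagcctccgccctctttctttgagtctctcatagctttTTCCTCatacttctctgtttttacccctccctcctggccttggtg
Cd68, chr11:69666141-69666420, minus strand: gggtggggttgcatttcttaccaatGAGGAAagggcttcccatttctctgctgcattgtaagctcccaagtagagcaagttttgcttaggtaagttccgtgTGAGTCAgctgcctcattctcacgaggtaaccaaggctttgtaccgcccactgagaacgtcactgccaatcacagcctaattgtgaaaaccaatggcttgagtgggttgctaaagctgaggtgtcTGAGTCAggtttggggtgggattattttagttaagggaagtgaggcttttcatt
Clec4d, chr6:123261857-123262136, plus strand: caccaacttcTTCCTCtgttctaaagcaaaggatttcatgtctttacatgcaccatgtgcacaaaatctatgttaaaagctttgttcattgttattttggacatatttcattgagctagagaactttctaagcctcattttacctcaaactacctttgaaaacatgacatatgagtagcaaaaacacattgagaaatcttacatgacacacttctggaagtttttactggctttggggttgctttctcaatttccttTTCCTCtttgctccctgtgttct
Cd163, chr6:124304401-124304680, plus strand: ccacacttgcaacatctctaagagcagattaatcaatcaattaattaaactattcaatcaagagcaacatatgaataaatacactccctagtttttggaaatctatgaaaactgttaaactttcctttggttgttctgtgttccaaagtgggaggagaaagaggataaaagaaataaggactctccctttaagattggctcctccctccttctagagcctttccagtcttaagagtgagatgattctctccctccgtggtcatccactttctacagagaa
The Itgam window held GAGGAA 2 times and no TGAGTCA. The Cd68 window held GAGGAA 1 time and TGAGTCA 2 times, and in the Clec4d window GAGGAA occurred 2 times, 1 of them after the start. The Cd163 window held neither. In the windows not printed, GAGGAA occurred 3 times for Mrc1 and 1 time for C1qb, with no TGAGTCA. Of 32851 RefSeq promoter windows of the same length, 26.0% held GAGGAA and 4.94% held TGAGTCA at least once. The matches describe letters only.

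The grade of the carcinoma separated most of the markers. Undifferentiated or spindle tumors had 7 of the 10 markers higher than poorly differentiated tumors and Arg1 lower, at an adjusted p of 0.05 in limma, while Cd163 and Msr1 did not pass. Over all probesets 7.39% passed in this comparison, 1531 higher and 1795 lower. Where groups are said below not to overlap, the share of all probesets that did so was not counted. The median difference of the 10 markers was 2.14 on the log2 scale, against 0.02 over all genes.

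**Figure D1:**
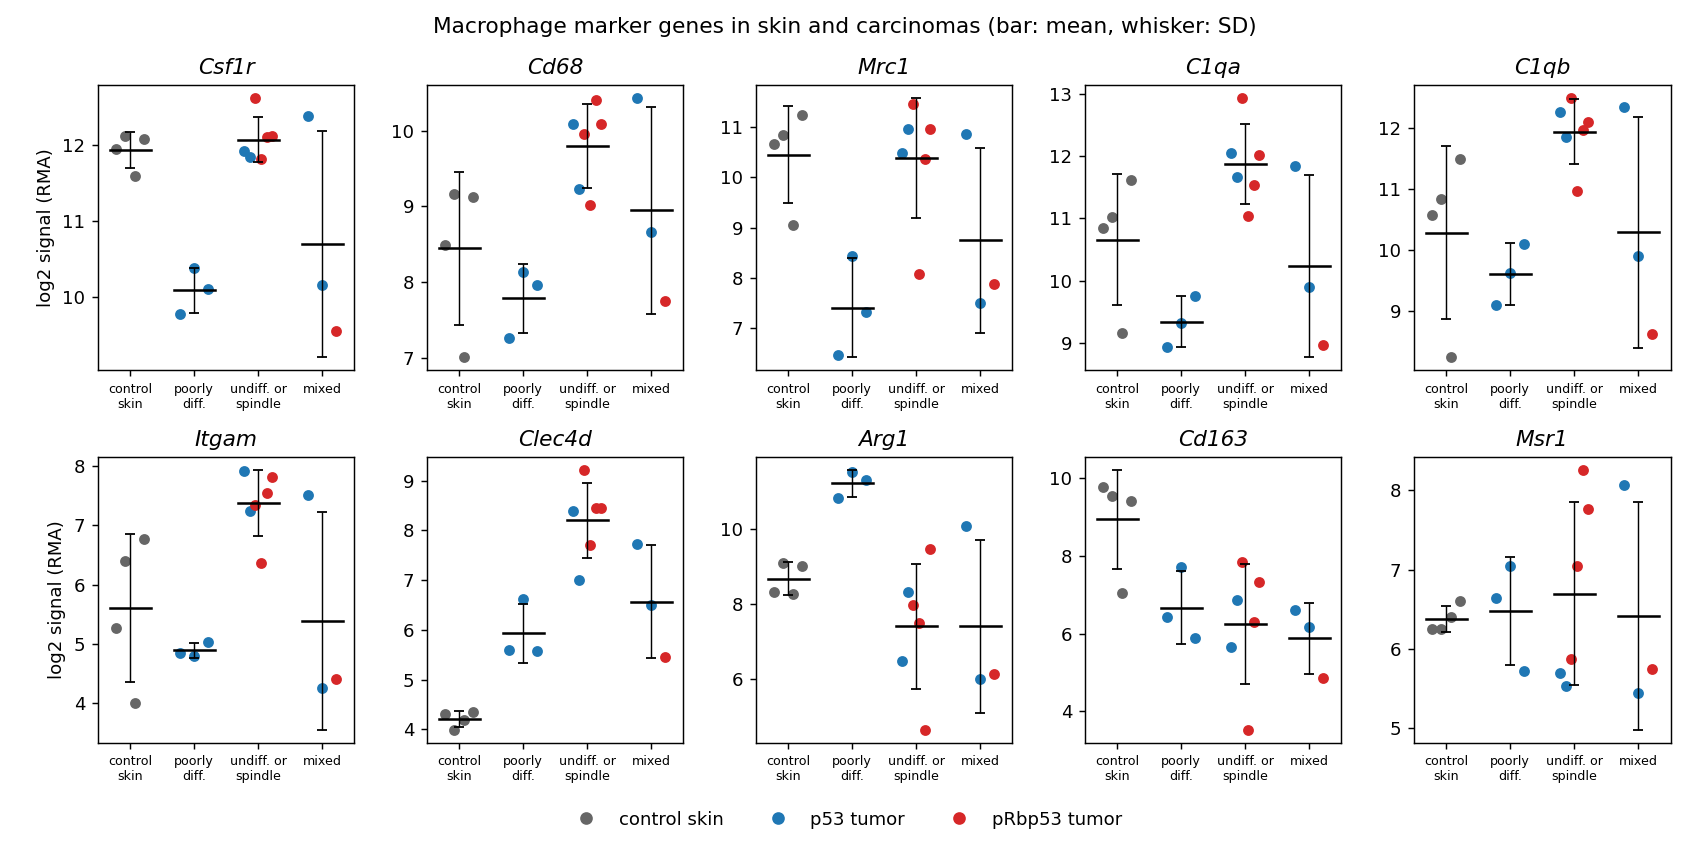
Log2 signal of each marker gene (vertical axis) by histology (horizontal axis), 1 point per sample, grey for control skin, blue for p53 tumors and red for pRbp53 tumors. The black bar is the mean and the whisker the SD. The 6 undifferentiated or spindle tumors lie above all 3 poorly differentiated tumors in Csf1r, Cd68, C1qa, C1qb, Itgam and Clec4d and below them in Arg1. How many of all probesets separate in this way was not counted.

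Csf1r, the receptor that macrophages need to survive, read 9.78, 10.38 and 10.10 in poorly differentiated tumors 2, 4 and 5. In the undifferentiated or spindle tumors it ran from 11.82 to 12.62 with a median of 12.01. The groups did not overlap, and the gap between them was wider than the range of either. The difference was 1.98 ± 0.20 (log2, SE, limma adjusted p = 0.000817), a 3.95-fold higher signal. It stayed past the threshold without each of the 9 tumors in turn (adjusted p 0.000872 to 0.00441) and within the p53 tumors alone, 2 against 3 (1.79, adjusted p = 0.0403). The other probesets of Csf1r correlated with it at r = 0.991 and 0.970 over 16 samples.

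The complement genes C1qa and C1qb, which encode chains of the C1q molecule, gave the same picture. C1qa read 8.94, 9.32 and 9.76 in the poorly differentiated tumors and 11.04 to 12.93 (median 11.85) in the undifferentiated or spindle tumors, a difference of 2.53 ± 0.37 (limma adjusted p = 0.00531). C1qb read 9.09, 9.62 and 10.09 against 10.96 to 12.49 (median 12.03), a difference of 2.34 ± 0.34 (limma adjusted p = 0.00483). Neither gene had a tumor of one grade within the range of the other. Within the p53 tumors alone C1qa passed (2.52, adjusted p = 0.0382) and C1qb did not (2.46, adjusted p = 0.0509).

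Itgam, the integrin alpha M chain of macrophages, monocytes and neutrophils, had its 3 poorly differentiated tumors within a narrow range, at 4.84, 4.79 and 5.04. The undifferentiated or spindle tumors read 6.37 to 7.93 with a median of 7.45. The difference was 2.48 ± 0.31 (limma adjusted p = 0.00236). Signals near 5 lie below the array medians, so no fold is given. Within the p53 tumors alone it was 2.69 (adjusted p = 0.0296). Like Csf1r, the calls of C1qa, C1qb, Itgam and Cd68 held without each of the 9 tumors in turn (highest adjusted p 0.0254, 0.0214, 0.0135 and 0.0390).

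Cd68, a lysosomal membrane protein, read 7.26, 8.13 and 7.96 in poorly differentiated tumors and 9.01 to 10.41 (median 10.03) in undifferentiated or spindle tumors. The difference was 2.02 ± 0.34 (limma adjusted p = 0.00952). The groups did not overlap, but the p53 tumors alone did not pass (1.88, adjusted p = 0.107). Mrc1, the macrophage mannose receptor, read 6.46, 8.43 and 7.32 against 8.08 to 11.46 (median 10.72), a difference of 2.98 ± 0.72 (limma adjusted p = 0.0410). Here the groups overlapped, because pRbp53 tumor 2 read 8.08, below poorly differentiated tumor 4. The Mrc1 call was lost without 8 of the 9 tumors in turn (highest adjusted p 0.142), and without pRbp53 tumor 2 the adjusted p was 0.00454.

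Clec4d, a C-type lectin that signals through the Fc receptor gamma chain and the kinase Syk, read 5.60, 6.62 and 5.57 in poorly differentiated tumors and 6.99 to 9.21 (median 8.42) in undifferentiated or spindle tumors. The difference was 2.27 ± 0.46 (limma adjusted p = 0.0199) with no overlap. The call was lost without poorly differentiated tumor 2 (adjusted p = 0.0770) and without tumor 5 (adjusted p = 0.0588), the tumor with low basal keratins. The suffix of its probeset marks probes shared between transcripts, so related lectins may add to its signal.

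Arg1, the enzyme that splits arginine into ornithine and urea, ran against the other markers. It read 10.83, 11.53 and 11.30 in the poorly differentiated tumors, above every other sample. The undifferentiated or spindle tumors were spread from 4.64 to 9.46 with a median of 7.73, the lowest being pRbp53 tumor 3 and the highest pRbp53 tumor 5. The difference was -3.82 ± 0.90 (limma adjusted p = 0.0366), lower in undifferentiated or spindle tumors. The call was lost without 7 of the 9 tumors in turn (highest adjusted p 0.122), while the difference stayed between -4.24 and -3.27. Kit and Ltf were high in the same 3 poorly differentiated tumors, and their part in the Arg1 result was not tested.

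Cd163, a scavenger receptor for haemoglobin, and Msr1, the class A scavenger receptor, did not separate the grades. Cd163 read 6.41, 7.71 and 5.88 in poorly differentiated tumors and 3.52 to 7.85 (median 6.57) in undifferentiated or spindle tumors, a difference of -0.42 ± 0.88 (limma adjusted p = 0.844). Msr1 read 6.65, 7.05 and 5.72 against 5.53 to 8.26 (median 6.46), a difference of 0.22 ± 0.66 (limma adjusted p = 0.890). Msr1 was high in 3 tumors instead: the mixed p53 tumor 1 and the spindle pRbp53 tumors 3 and 5 read 8.06, 8.26 and 7.76, and the other 9 tumors at most 7.05. The other probesets of Msr1 correlated with it at r = 0.863 to 0.970 over 16 samples.

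With genotype as a covariate the grade differences of Csf1r (1.79, adjusted p = 0.0103), C1qa (adjusted p = 0.0365), C1qb (adjusted p = 0.0269) and Itgam (adjusted p = 0.0134) still passed in limma, and those of Cd68, Mrc1, Arg1 and Clec4d did not (adjusted p 0.0647 to 0.140). Because every poorly differentiated tumor was a p53 tumor, this fit gives the same differences as the p53 tumors alone. The pRbp53 tumors add only to the measure of spread, so it is not a separate check. With the 5 spindle tumors alone against the poorly differentiated tumors, a comparison chosen after seeing the data, 6 of the 10 markers passed, where 6.57% of all probesets passed.

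**Figure D2:**
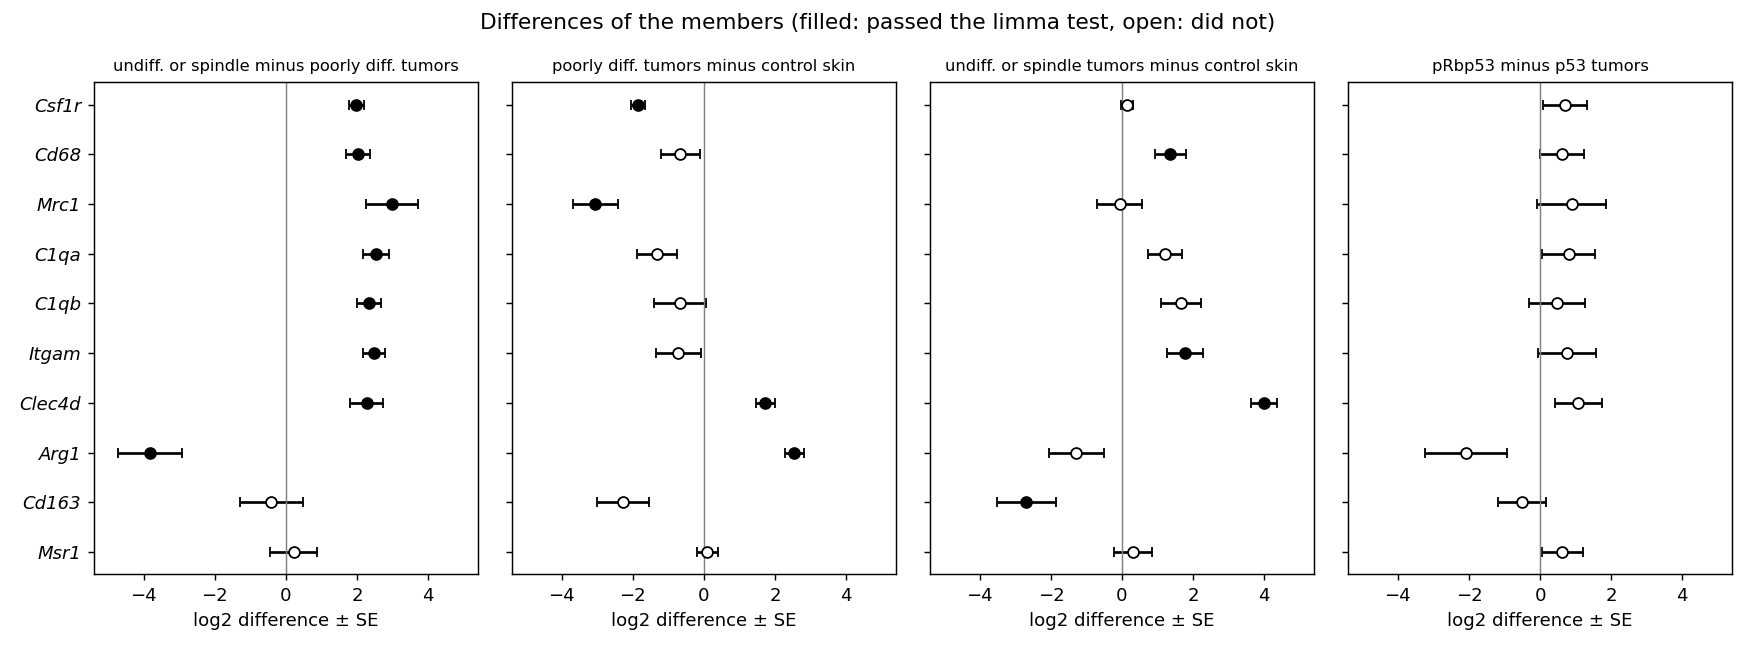
Log2 difference of each marker (horizontal axis, point) with its SE (bar) in 4 comparisons, 1 panel each; filled points passed the limma test and open points did not. By grade 8 of 10 points are filled, against 4 for each grade against control skin and 0 by genotype.

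Against control skin, the 12 tumors were first taken as 1 group, which joins the grades. Clec4d rose and Cd163 fell, and the other 8 of 10 did not pass, where 13.2% of all probesets passed. The differences of these 8 ran from -1.22 (Mrc1) to 0.66 (C1qb), with SE from 0.51 (Msr1) to 1.11 (Arg1). Not passing therefore does not show that they were unchanged. The median difference of the 10 markers was 0.18 on the log2 scale, against 0.06 over all genes. The grades departed from control skin in different genes, and because they share the same 4 control samples the values are given side by side.

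Clec4d read 4.30, 3.99, 4.18 and 4.35 in control skin and 5.45 to 9.21 in tumors, so that the lowest tumor, pRbp53 tumor 4, was above the highest control. The control signals lay below the median of every array, and whether they exceed background is not known here. The difference was 3.01 ± 0.62 (limma adjusted p = 0.00394), and it stayed past the threshold without each sample in turn (adjusted p 0.00205 to 0.0175). It was 1.72 ± 0.27 in poorly differentiated tumors (limma adjusted p = 0.00619), 3.99 ± 0.35 in undifferentiated or spindle tumors (limma adjusted p = 2.1e-05) and 2.35 ± 0.48 in mixed tumors (limma adjusted p = 0.0309). Without control skin 3 it still passed in the poorly differentiated (1.72, adjusted p = 0.0190) and undifferentiated or spindle tumors (3.98, adjusted p = 0.000155) and not in the mixed ones (2.34, adjusted p = 0.0767).

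Cd163 read 9.78, 9.54 and 9.41 in control skin 1, 2 and 4 and 7.05 in control skin 3, the array with the high actin ratio. The tumors ran from 3.52 in pRbp53 tumor 2 to 7.85 in pRbp53 tumor 1, all below the 3 higher control samples, with 3 tumors above control skin 3. The difference was -2.69 ± 0.67 (limma adjusted p = 0.0135). It was -3.32 (adjusted p = 0.00597) without control skin 3, and without control skin 1, 2 or 4 it no longer passed (adjusted p = 0.0661, 0.0557 and 0.0523). With control skin 2 and 4 averaged into 1 sample it did not pass either (adjusted p = 0.0542).

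Poorly differentiated tumors had 4 of the 10 markers past the threshold against control skin, where 14.8% of all probesets passed. Csf1r read 11.95, 12.12, 11.59 and 12.08 in control skin, above all 3 poorly differentiated tumors, and fell by 1.85 ± 0.19 (limma adjusted p = 0.00111). Mrc1 read 10.67, 10.85, 9.06 and 11.24 in control skin and fell by 3.05 ± 0.62 (limma adjusted p = 0.0180). Arg1 read 8.33, 9.08, 8.27 and 9.02 in control skin and rose by 2.54 ± 0.27 (limma adjusted p = 0.00123), with no overlap. Cd68, C1qa, C1qb and Itgam lay 0.66 to 1.32 below the control mean and did not pass. Without control skin 3, a fit chosen after seeing the data, 6 of the 10 passed. Csf1r (-1.96, adjusted p = 0.00169), Mrc1 (-3.51, adjusted p = 0.00784) and Arg1 (2.41, adjusted p = 0.00396) passed again with Clec4d, and C1qa (-1.82, adjusted p = 0.0119) and Cd163 (-2.91, adjusted p = 0.0120) were added. Cd68 (-1.14, adjusted p = 0.0586), C1qb (-1.36, adjusted p = 0.0507) and Itgam (-1.26, adjusted p = 0.0930) did not pass. The 14.8% belongs to the fit with all 4 control samples, and the share without control skin 3 is not given here.

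Undifferentiated or spindle tumors also had 4 markers past the threshold, where 24.1% of all probesets passed. Beside Clec4d these were Itgam, which rose by 1.77 ± 0.51 (limma adjusted p = 0.0295), Cd68, which rose by 1.36 ± 0.44 (limma adjusted p = 0.0465), and Cd163, with a difference of -2.69 ± 0.83 (limma adjusted p = 0.0383). Itgam read 5.27, 6.40, 3.99 and 6.78 in control skin and Cd68 read 8.49, 9.17, 7.0 and 9.12, with control skin 3 the lowest in both. Csf1r was near the control level, with a difference of 0.13 ± 0.17 (limma adjusted p = 0.636). Mrc1 did not pass either, at -0.07 ± 0.64 (limma adjusted p = 0.958), and its SE is too wide to place it at the control level. Without control skin 3 the Mrc1 difference was -0.53 (limma adjusted p = 0.618). C1qa (1.22, adjusted p = 0.0902) and C1qb (1.66, adjusted p = 0.0537) did not pass in limma, while the other 2 probesets of C1qb did (1.11, adjusted p = 0.0267, and 1.34, adjusted p = 0.0247). Without control skin 3, Clec4d and Cd163 (-3.33, adjusted p = 0.0192) were the 2 markers that passed, and Itgam (1.23, adjusted p = 0.0601) and Cd68 (0.87, adjusted p = 0.0926) lost the call. C1qa (0.72, adjusted p = 0.215) and C1qb (0.97, adjusted p = 0.0668) again did not pass. The 24.1% belongs to the fit with all 4 control samples, and the share without control skin 3 is not given here. Cd68 and Itgam were below the control mean in all 3 poorly differentiated tumors and above it in all 6 undifferentiated or spindle tumors, with or without control skin 3, and C1qa and C1qb were above it in 6 of 6 with that sample and in 5 of 6 without it.

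The 3 mixed tumors did not behave as 1 group. The mixed tumor p53 tumor 1 read 12.38 for Csf1r, 11.84 for C1qa and 7.52 for Itgam, within the range of the undifferentiated or spindle tumors. The mixed tumors p53 tumor 7 and pRbp53 tumor 4 read 10.15 and 9.55 for Csf1r, 9.90 and 8.97 for C1qa and 4.25 and 4.41 for Itgam, near or below the poorly differentiated tumors. Their Arg1 was low as well, at 6.0 and 6.13. In p53 tumor 1 Arg1 read 10.07, above the undifferentiated or spindle tumors (at most 9.46) and below the poorly differentiated ones (at least 10.83). Only Clec4d passed between mixed tumors and control skin, 1 of 10 markers, where 7.29% of all probesets passed. When control skin 3 was left out it was Cd163 alone (-3.70, adjusted p = 0.0113), and without p53 tumor 7 it was Clec4d alone (2.38, adjusted p = 0.0488). The 7.29% belongs to the fit with every sample.

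**Figure D3:**
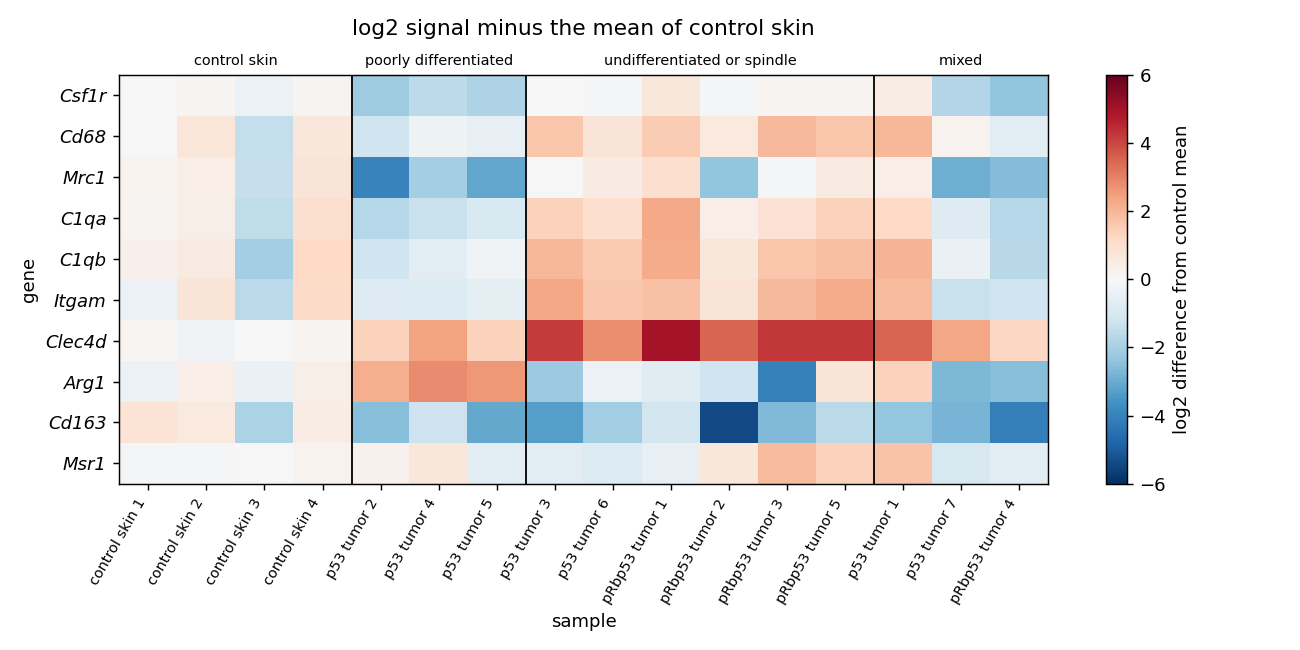
Log2 signal of each marker (rows) minus the mean of control skin, in every sample (columns, ordered by histology), red above and blue below the control mean. The undifferentiated or spindle tumors and the mixed p53 tumor 1 are red in Cd68, C1qa, C1qb, Itgam and Clec4d, and the 3 poorly differentiated tumors are red in Arg1 and Clec4d. Among the other tumors, Arg1 lies above the control mean in p53 tumor 1 and pRbp53 tumor 5.

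Between the genotypes no marker passed. In limma 0 of 10 markers and 0.198% of all probesets passed at an adjusted p of 0.1. At an unadjusted p under 0.05 the count of markers was 0 as well, where 4184 of 45037 probesets passed. The p53 tumors against control skin gave 2 of 10 markers, where 10.7% of all probesets passed (Cd163 by -2.47 and Clec4d by 2.57), and pRbp53 tumors gave 1 of 10, where 18.3% passed (Clec4d by 3.64; Cd163 by -2.98, adjusted p = 0.0555). Without control skin 3 Cd163 and Clec4d passed in both genotypes (Cd163 by -3.11 in p53 and -3.61 in pRbp53 tumors), and without p53 tumor 7 both passed in the p53 tumors. The 10.7% and 18.3% belong to the fits with every sample. Between genotypes the largest difference was that of Arg1, at 7.14 ± 1.83 (SD, n = 5) in pRbp53 tumors and 9.22 ± 2.30 (SD, n = 7) in p53 tumors, with a limma adjusted p of 0.624. Csf1r differed by 0.71 ± 0.61 (log2, SE), higher in pRbp53 tumors, and with histology as a covariate it differed by -0.38.

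Across the 12 tumors Csf1r fell into separate ranges, 5 tumors at 9.55 to 10.38 and 7 tumors at 11.82 to 12.62, with nothing between. The low range held the 3 poorly differentiated tumors, p53 tumor 7 and pRbp53 tumor 4. A correlation over all tumors would describe that gap, so pairs of markers were compared within the 6 undifferentiated or spindle tumors. There 0 of 45 pairs passed an exact permutation test of Pearson's r after Benjamini-Hochberg adjustment, and 6 had an unadjusted p under 0.05. An exact test on 6 tumors has so few orderings that a single pair could not pass by itself after adjustment over 45 pairs. The count of 0 therefore does not show that the markers vary apart. The strongest pair was Cd163 with Mrc1 (Pearson r = 0.969, exact permutation p = 0.0042, adjusted p = 0.188; Spearman rho = 0.943, exact permutation p = 0.0167, adjusted p = 0.375), both lowest in pRbp53 tumor 2. Without the 2 tumors farthest from the median of Cd163 the r was 0.839. Csf1r with C1qa had r = 0.850 (exact permutation p = 0.0403, adjusted p = 0.319; rho = 0.714, exact permutation p = 0.136, adjusted p = 0.557), and -0.03 without the 2 tumors farthest from the median of Csf1r, so the relation rests on those.

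**Figure D4:**
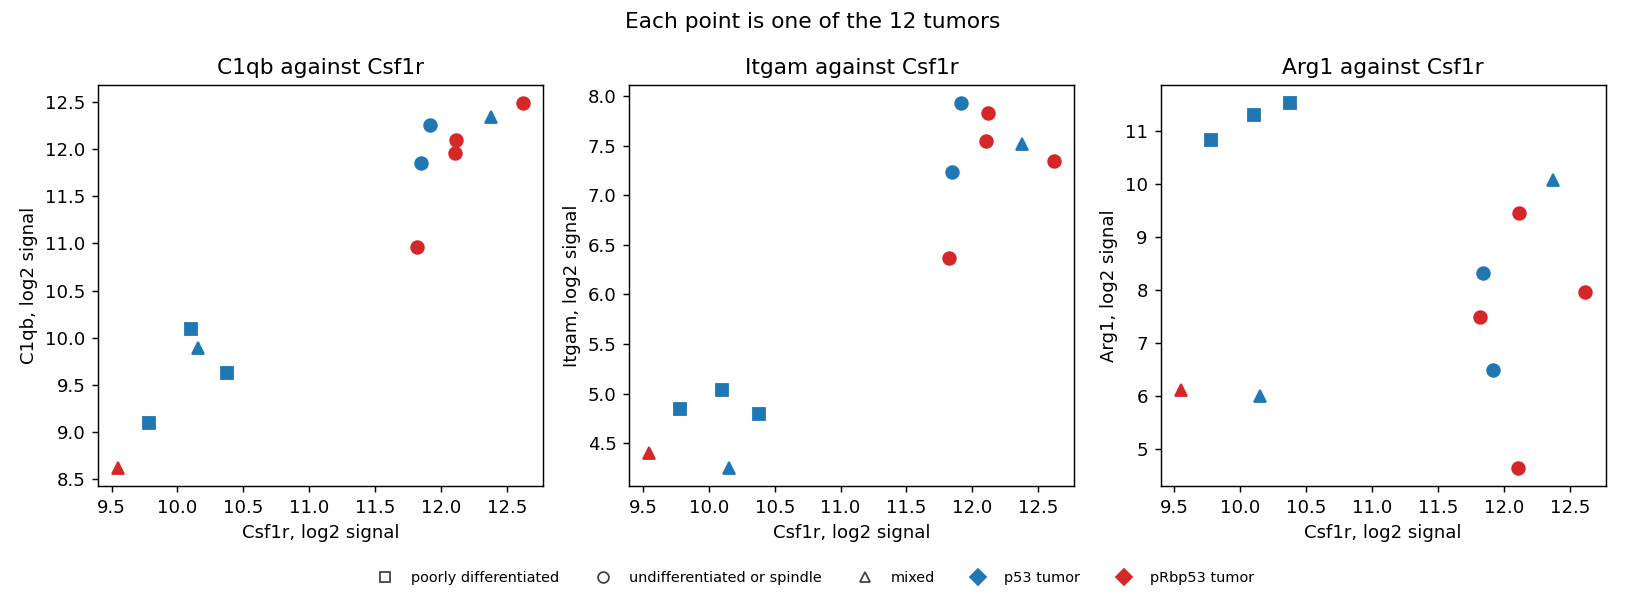
Log2 signal of C1qb, Itgam and Arg1 (vertical axes) against Csf1r (horizontal axis) in the 12 tumors, with squares for poorly differentiated, circles for undifferentiated or spindle and triangles for mixed tumors, blue for p53 and red for pRbp53. The tumors lie in separate ranges of Csf1r, and Arg1 is above 10.8 in the squares of the low range and at most 6.13 in its triangles.

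As a description over these 12 tumors, the genes whose log2 signal was most like that of Csf1r were Tyrobp, Plek, Tlr13, Lyz1, P2ry6, Gpr183, Ms4a6b, Sla, Lyz2 and C1qb, with Pearson r from 0.970 to 0.979. The other markers ranked 11th (C1qa), 44th (Itgam), 58th (Clec4d), 61st (Cd68) and 116th (Mrc1) of 18192 genes. Msr1 (r = 0.414), Cd163 (r = 0.224) and Arg1 (r = -0.21) were far from it. The points share the gap between the ranges.

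Genes around the markers followed the grades in part. Of 19 other macrophage markers, 10 were higher in undifferentiated or spindle tumors and 0 lower, with a median difference of 1.34 against 0.02 over all genes. Among them were Ms4a7 (2.49), Lyz2, a lysozyme (2.48), C1qc, the third C1q chain (2.46), and Fcgr1, the high-affinity IgG receptor (2.40). Adgre1, which encodes F4/80, was also higher (2.02 ± 0.48, limma adjusted p = 0.0399). Against control skin in all tumors together, 0 of these 19 passed in either direction.

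Of 13 genes for ligands of the CSF1 receptor and regulators of myeloid cells, 7 were higher by grade and 0 lower (median 1.64). They were led by Maf, a macrophage transcription factor (2.84), Tyrobp, the adaptor DAP12 (2.20), Fcer1g, the Fc receptor gamma chain (2.18), and Csf2rb, the beta chain of the GM-CSF receptor (2.06). Csf1, the ligand of Csf1r, and Spi1, which encodes PU.1, are named here after their values were seen: Csf1 read 8.15 to 8.18 in poorly differentiated and 9.58 to 10.10 in undifferentiated or spindle tumors (1.64 ± 0.13, limma adjusted p = 0.000225), and Spi1 read 6.46 to 6.78 and 7.84 to 8.76 (1.70 ± 0.21, limma adjusted p = 0.00196). Il34, the other ligand, did not pass by grade (0.82, adjusted p = 0.492) and fell in tumors against control skin (-1.72 ± 0.52, limma adjusted p = 0.0385).

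Of 11 genes for inducible C-type lectins and Syk signalling, 6 were higher by grade and 0 lower (median 1.85). These included Clec4a3 (4.07), Clec4n, which encodes Dectin-2 (3.02), Clec4a2 (2.86) and Clec5a (2.29). Clec4e, the Mincle gene next in family to Clec4d, did not pass by grade (1.85, adjusted p = 0.0800) or against control skin (1.74, adjusted p = 0.0661). Of 16 scavenger and phagocytic receptors 8 were higher and 0 lower (median 1.41), led by Fcgr2b (3.14), Colec12 (2.96), Fcgr3 (2.52) and Lrp1 (2.29). Of 9 other complement genes 3 were higher and 0 lower (median 1.38), namely C1qc, C3ar1 (1.80) and Cfp, properdin (0.63).

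Genes used as signs of alternative activation did not move as a unit. By grade 2 of 15 were higher (Stab1 by 1.80 and Il4ra by 1.65) and 0 lower. Against control skin 6 of 15 fell and 1 rose in all tumors together, with a median of -1.32 against 0.06 over all genes. Retnla, a resistin-like protein, fell by 5.15 ± 0.51 (limma adjusted p = 2.86e-06), from 10.67 to 12.16 in control skin to 4.64 to 8.34 in tumors. The lectin genes Clec10a (-4.86) and Mgl2 (-3.70) fell as well. Chil3, the chitinase-like Ym1 gene, rose (4.07 ± 1.21, limma adjusted p = 0.0349), from 3.42 to 3.61 in control skin to 3.12 to 10.71 in tumors. It did not rise in every tumor: p53 tumor 5 (3.12) lay below the control samples and pRbp53 tumor 4 (3.61) was level with the highest.

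Of 15 genes of inflammatory activation, 4 were higher by grade and 0 lower (median 1.44): Ptgs2, cyclooxygenase-2 (4.34), the chemokine genes Cxcl10 (3.39) and Ccl2 (3.05), and Cd86, a costimulatory molecule (2.06). Nos2, the inducible nitric oxide synthase that competes with arginase for arginine, did not pass (0.21, adjusted p = 0.225). Of 10 genes of arginine metabolism 0 passed by grade, and the median difference was 0.04. Against control skin Slc7a1, an arginine transporter (1.17), and Srm, spermidine synthase (1.14), rose and Oat (-0.72) fell.

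**Figure D5:**
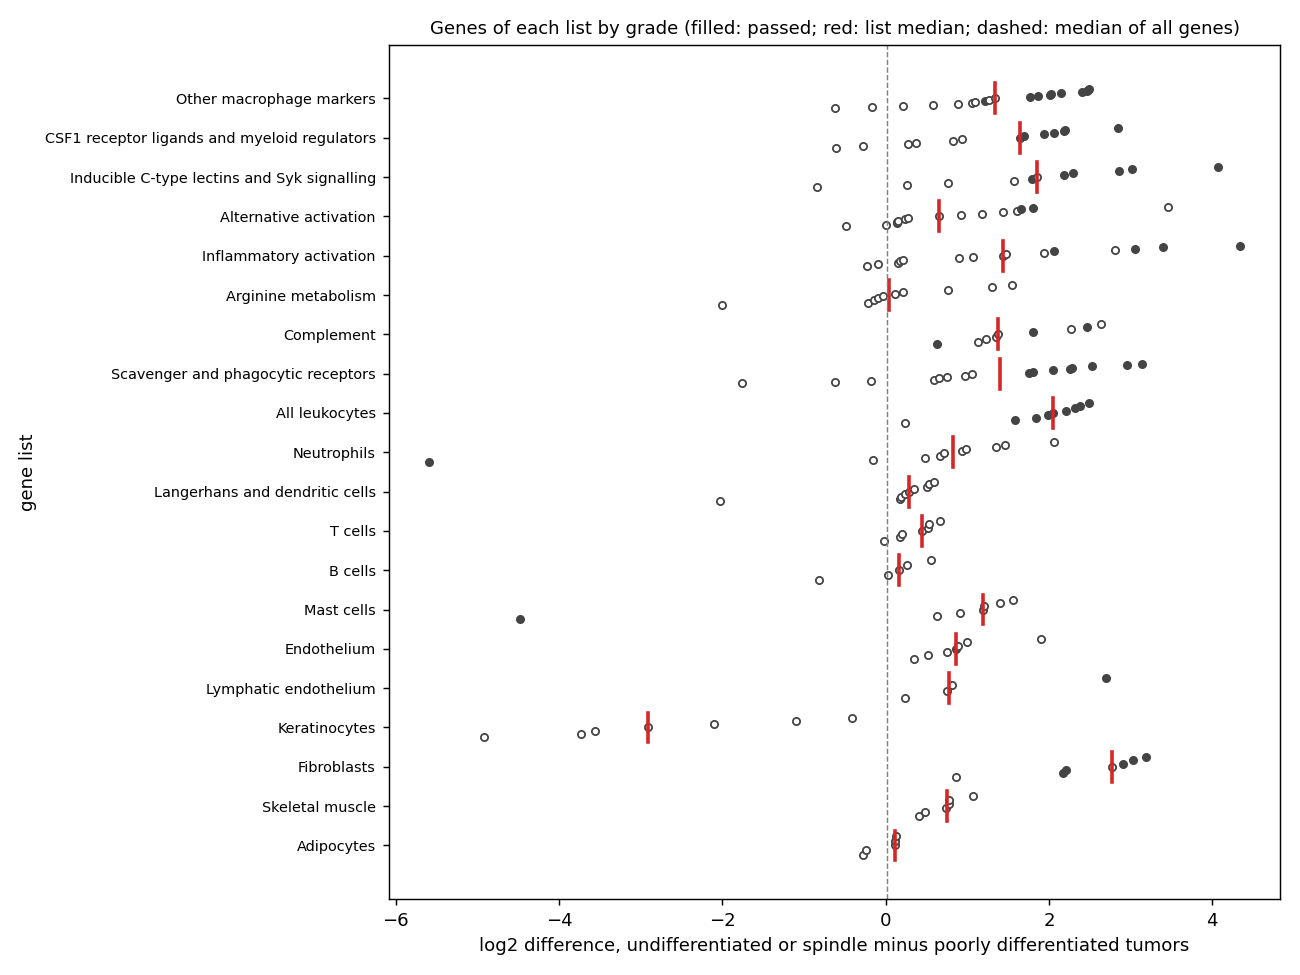
Log2 difference between undifferentiated or spindle and poorly differentiated tumors (horizontal axis) for every gene of 20 gene lists (vertical axis), filled where it passed the limma test, with the list median in red and the median of all genes dashed. The median is 2.05 for all leukocytes, 1.34 for other macrophage markers, 0.44 for T cells and -2.91 for keratinocytes.

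Markers of other cells moved with the grade as well. Of 9 genes of all leukocytes, 8 were higher in undifferentiated or spindle tumors, led by Cd48 (2.49), Cd53 (2.38), Ptprc, which encodes CD45 (2.32), and Coro1a (2.21). The mean log2 signal of the 9 was 7.07 to 7.93 in poorly differentiated, 8.93 to 9.95 in undifferentiated or spindle tumors and 7.86 to 9.49 in control skin. Of 10 neutrophil genes 0 were higher and 1, Ltf, was lower (-5.59), against a list median of 0.82. The mean signal of the 10 was 5.84 to 7.15 in poorly differentiated and 5.97 to 7.90 in undifferentiated or spindle tumors. These means include Ltf, which raises them in the poorly differentiated tumors, so they do not show that the neutrophil signal was level between the grades. Of 7 T cell genes, 5 B cell genes and 9 Langerhans and dendritic cell genes 0 passed by grade, with T cell means of 4.93 to 5.29 and 4.94 to 5.72. Of 7 fibroblast genes 5 were higher, led by Pdgfra (3.19), Dcn (3.02), Col1a1 (2.91) and Col1a2 (2.20), and their mean signal was 8.30 to 10.83 and 11.76 to 13.52. Of 7 keratinocyte genes 0 passed, with a median of -2.91 and mean signals of 4.88 to 9.68 and 4.76 to 5.35. Of 7 mast cell genes 0 were higher and 1, Kit, was lower (-4.48), against a list median of 1.19. Of 7 endothelial genes Pecam1 was higher (0.86) and of 4 lymphatic genes Pdpn was higher (2.70), while 0 of 6 skeletal muscle and 0 of 5 adipocyte genes passed. The part of these cells in the marker differences was not tested.

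Against control skin several other cell types had larger median differences than the macrophage markers. All 6 skeletal muscle genes fell (median -7.72), as did 5 of 7 keratinocyte genes (median -5.48), all 5 adipocyte genes (median -3.58) and 5 of 7 T cell genes (median -1.32). Of 9 Langerhans and dendritic cell genes 4 fell, with Cd207, the langerin gene, going from 8.20 to 9.77 in control skin to 4.30 to 5.60 in tumors. Mast cell genes fell in 3 of 7. Of 9 genes of all leukocytes 0 passed, and of 10 neutrophil genes S100a8 rose (3.29). The part of these cells in the marker levels was not tested.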

How the data were processed

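RNA of 4 control skin samples and 12 tumors was hybridised to Affymetrix MOE430 2.0 arrays, and the authors made the deposited log2 signals with RMA, whose version is not given in the sources used here. RMA brings arrays to a shared distribution, so differences are relative within an array. The table held 45101 probesets; 64 array controls were left out. The array's annotation gave 34945 tested probesets 1 symbol, 932 several and 9160 none, and 34741 had a gene ID in the RefSeq table. Every probeset was fitted with limma 3.58.1 in R 4.3.3 (lmFit, eBayes, two-sided, Benjamini-Hochberg over 45037), with thresholds of 0.05 and, for genotype, 0.1. On simulated arrays of 2-fold and 4-fold changes, by grade, 51% and 80% of the changed probesets were recovered. Depth is not defined for arrays, and their number limits the precision.

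Named genes are the 10 markers, up to 4 genes of each list with the largest difference among those that passed, defining markers of other cells, and the 10 genes most like Csf1r. Csf1, Spi1, Adgre1, Clec4e and Nos2, and Il34 by grade, are named outside that rule, after their values were seen. The markers and lists were chosen with earlier results of these data known, so no pattern is independent support. List genes to which the annotation gives no probeset alone were not analysed here. Replicate numbers did not pair the samples: deviations of 3 of 13 same-numbered pairs correlated above 0.1. The methods' t-test, other scalings, filters, covariates and leaving out each sample were tried as alternatives.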

Additional observations from a re-analysis of the deposited data

Results flagged for a closer look

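In 4 of 40 sets of samples (10 markers in 4 groups) 1 sample lay far from the others, where chance gives about 1 in 20. Csf1r in pRbp53 tumor 4, the mixed tumor of that genotype, read 9.55 against 11.82 to 12.62 in the other 4 pRbp53 tumors. Csf1r in pRbp53 tumor 1 read 12.62 against 11.82 to 12.12 in the other undifferentiated or spindle tumors. Cd163 in control skin 3 read 7.05 against 9.41 to 9.78 in the other control samples, and the actin ratio of that array was high (1.33). Mrc1 in pRbp53 tumor 2 read 8.08 against 10.37 to 11.46 in the other undifferentiated or spindle tumors.

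The difference from control skin was not the same in both grades, by the limma test between the grades, for 8 markers: Csf1r (1.98), Cd68 (2.02), Mrc1 (2.98), C1qa (2.53), C1qb (2.34), Itgam (2.48), Clec4d (2.27) and Arg1 (-3.82), each as the log2 signal of undifferentiated or spindle minus poorly differentiated tumors.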

How the results depend on the processing

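Clec4d in tumors against control skin passed under all 32 alternatives, from 1.72 to 3.99, and lost the call in mixed tumors alone once control skin 3 was left out too (2.34, adjusted p = 0.0767). By grade, Csf1r, C1qa and Itgam lost the call in 2, 1 and 1 of 22 alternatives, C1qb in 4, Cd68 in 5, Clec4d in 7, Arg1 in 14 and Mrc1 in 15, with no change of direction in any of these 8. The cause of these losses was not tested. For tumors against control skin, where 2 markers and 5949 probesets passed, 1 marker passed under the methods' t-test (8987 probesets), in pRbp53 tumors alone, in mixed tumors alone (3282) and with control skin 2 and 4 averaged, and 4 passed in poorly differentiated and in undifferentiated or spindle tumors alone (10841); array weights gave 14405 probesets. Leaving out 1 sample gave 1 to 2 markers and 3744 to 6908 probesets, the fewest without control skin 1.

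By grade, 8 markers and 3326 probesets passed. The methods' t-test gave 3 and 825, the actin covariate 5 and 1684, genotype as a covariate 4 and 2024, mixed tumors joined to the poorly differentiated 3 and 911, p53 tumors alone 3 and 827, and an adjusted p under 0.1 gave 5436 probesets. With the actin covariate Mrc1, Arg1 and Clec4d lost the call. Leaving out 1 tumor gave 5 to 7 markers, with 5 without p53 tumor 2 or p53 tumor 5, and 2039 to 3473 probesets, the fewest without p53 tumor 4. The replicate block gave 0 markers and 0 probesets by grade (Csf1r 2.03, adjusted p = 0.0927), leaving few residual degrees of freedom, and 35 probesets by genotype; it changed no call of a marker against control skin. By genotype 0 markers passed under every alternative, and 89 probesets became 288 with array weights, 25 under the methods' t-test, 54 with histology as a covariate, 57 at 0.05, and 47 to 216 without 1 tumor (152, 216 and 184 without p53 tumor 1, p53 tumor 6 and pRbp53 tumor 4, and 47, 53 and 55 without p53 tumor 2, pRbp53 tumor 3 and pRbp53 tumor 5). Of 45 pairs of markers 21 passed over the 12 tumors, 10 as deviations from histology means and 0 in the undifferentiated or spindle tumors alone, the last pair of settings chosen after seeing the data. The undifferentiated or spindle tumors alone are too few for a single pair to pass by itself.

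Direction changed only for markers that had not passed. Against control skin, C1qa became -0.12 with the actin covariate, -0.33 without control skin 3, -0.02 without pRbp53 tumor 1, -0.24 without control skin 3 and p53 tumor 7, -0.16 in p53, -1.32 in poorly differentiated and -0.42 in mixed tumors alone. C1qb became -0.026 without control skin 3 and -0.68 in poorly differentiated tumors alone, where Cd68 was -0.66, Itgam -0.72 and Arg1 2.54. Arg1 became 0.014 without pRbp53 tumor 3 and 0.54 in p53 tumors alone, where Msr1 was -0.069. Itgam was -0.22 in mixed and Csf1r 0.13 in undifferentiated or spindle tumors alone. By genotype, histology as a covariate gave Csf1r -0.38, Cd68 -0.46, Mrc1 -0.77, C1qa -0.62, C1qb -0.95, Itgam -0.70 and Clec4d -0.048, and Cd163 was 0.10 without pRbp53 tumor 2. By grade, Cd163 was 0.10 without p53 tumor 4 and 0.13 without pRbp53 tumor 2, and Msr1 was -0.15 without p53 tumor 5, -0.09 without pRbp53 tumor 3 and -0.85 with genotype as a covariate or in p53 tumors alone. Leaving out 1 sample at a time gave ranges of -0.33 to 0.49 for C1qa, -0.026 to 1.06 for C1qb and -0.61 to 0.014 for Arg1 against control skin, -0.98 to 0.10 for Cd163 by genotype, and -0.81 to 0.13 for Cd163 and -0.15 to 0.51 for Msr1 by grade. Leaving out control skin 3 or p53 tumor 7 in single groups of tumors against control skin was chosen after seeing the data. Without control skin 3 the markers that passed became 6 from 4 in poorly differentiated, 2 from 4 in undifferentiated or spindle and 2 from 1 in pRbp53 tumors, and mixed tumors gave 2442 probesets without control skin 3 and 5052 without p53 tumor 7. For the first 3 of these groups the share of all probesets without control skin 3 is not given here, so the changes of count have nothing beside them. In p53 tumors Cd68 was -0.10, C1qb -0.23 and Itgam -0.20 without control skin 3 (0.41, 0.59 and 0.62 without p53 tumor 7), and Msr1 was -0.059 and 0.076 without one and the other. In mixed tumors C1qb was -0.68 and 0.19, and Itgam -0.76 and 0.35, in the same order.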

Other observations

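Among the 6 undifferentiated or spindle tumors, pRbp53 tumor 2 was the lowest for 7 of the 10 markers, namely Csf1r, Cd68, Cd163, Mrc1, C1qa, C1qb and Itgam. Its Adgre1 was the lowest of the 6 as well, at 7.20, while its Ptprc (10.04) was above the median of the 6 and its S100a8 (12.10) was the second highest. The actin ratio of its array was the highest of the 6, at 0.50 against 0.21 to 0.42, and its part in these values was not tested.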
